A study of Mus musculus with 24 samples.

Results

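Liver RNA of young and old mice was compared at ZT6 and ZT10, the 2 sampling times of the later light phase, in 8 of the 24 libraries of the series. All mice were wild type C57BL/6; the labels give an age of about 4 months for the young and about 19 months for the old. The comparison held 4 young libraries (2 at ZT6 and 2 at ZT10) against 4 old ones (2 at ZT6 and 2 at ZT10), and every library was taken by its labelled age and time. Zeitgeber time (ZT) counts hours from lights on. The study asked how the daily rhythm of liver gene expression differs between young and old mice, and the other 16 libraries cover ZT2, ZT14, ZT18 and ZT22. The labels give neither sex, nor the light schedule, nor which animal a library came from, so a p-value here measures the spread between libraries, which may be technical. The transcript Xist, made from an inactivated X chromosome, was listed at 0 in all 8 libraries, and the Y-linked genes Ddx3y and Eif2s3y were expressed in each at 30.2 to 46.0 and 34.7 to 46.2 scaled TPM.

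Hepatocytes make most proteins of the blood plasma. During inflammation, cytokines such as interleukin 6 and interleukin 1 act on them through STAT3, NF-κB and C/EBP factors, and they then make more acute phase proteins: serum amyloid A, haptoglobin, hemopexin, orosomucoids and lipocalin 2. Between meals, which for a mouse means the light phase, fatty acids reach the liver and activate the nuclear receptor PPARα, whose targets oxidise fatty acids in mitochondria, peroxisomes and, through the Cyp4a omega-hydroxylases, in the endoplasmic reticulum.

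Levels are TPM (reads per unit of transcript length, scaled to sum to 1000000 in each library), rescaled between libraries by median-of-ratios factors and called scaled TPM below. A difference is old minus young on the log2(scaled TPM + 0.5) scale, which understates the change of genes with low levels. The 8 libraries held, in units of 1000000 reads of 50 bases computed from coverage, the equivalent of 9.91 to 12.6 in the young and 8.70 to 10.8 in the old, with 16161 to 16547 genes above 0 and 10.9 to 14.2% of TPM from the mitochondrial genome. Log levels of the 2 replicates of a group correlated at 0.945 to 0.969 over genes, and pairs from different groups at 0.929 to 0.966. The summed level of 10 hepatocyte markers was 100050.0 to 128775 scaled TPM in the young and 106221 to 122518 in the old libraries (exact two-sided permutation p = 0.5 within times, n = 4 and 4; the smallest p this design allows is 0.0556), and 13 of 15 pancreatic acinar markers were at 0 in all 8. In such bulk tissue, fewer cells of a type and less RNA per cell cannot be told apart.

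Old livers had more mRNA of the acute phase genes Lcn2, Hp and Orm3, of the phagocyte genes Marco and S100a9 and of the IGF-binding protein gene Igfbp4, and less mRNA of Cyp4a fatty acid omega-hydroxylases and of the acyl-CoA thioesterase Acot1. Of 12223 genes tested, 13 were higher in old (0.106%) and 5 were lower (0.0409%) at an adjusted p under 0.05. In all 18 both old libraries lay beyond both young ones at ZT6 and again at ZT10. At an unadjusted p under 0.05, 598 genes were higher (4.89%) and 454 lower (3.71%). Both old libraries lay above both young ones at both times for 588 genes (4.81%) and below them for 556 (4.55%). The median difference over all genes tested was -0.02. When the spread was estimated from all 24 libraries, 86 of 12234 genes passed as higher (0.703%) and 20 as lower (0.163%).

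Which genes passed depended on single libraries. Of the 18, 1 kept its call without the first replicate of Young ZT6 (1 gene higher and 0 lower in that fit), 14 without the second (22 and 3), 5 without the first of Young ZT10 (4 and 3) and 2 without the second (3 and 0). Likewise 11 kept it without the first replicate of Old ZT6 (17 and 5), 6 without the second (6 and 4), 12 without the first of Old ZT10 (15 and 5) and 7 without the second (7 and 2). Only Marco passed in all 8 of these fits, and Lcn2 did in 7, with an adjusted p of 0.0522 in the fit without the first replicate of Young ZT6. Of the others, Cyp4a31 kept its call in 6 of the 8 fits, Cyp4a10, Cyp4a32, Hp, Igfbp4 and Orm3 in 4, Ccl2, Slc22a27 and 2610305D13Rik in 3, Acot1, Prtn3, S100a9 and Tmem176a in 2, and Cyp4a12b, Gm13139 and Gm13251 in 0. The direction of all 18 was the same in every one of these fits. Without the filter on low levels Hp, Prtn3, S100a9, Cyp4a12b, Gm13139 and Gm13251 did not pass, and with quantile normalization Tmem176a, Cyp4a12b, Gm13139 and Gm13251 did not. Without median-of-ratios scaling 28 genes passed as higher and 9 as lower.

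**Figure D1:**
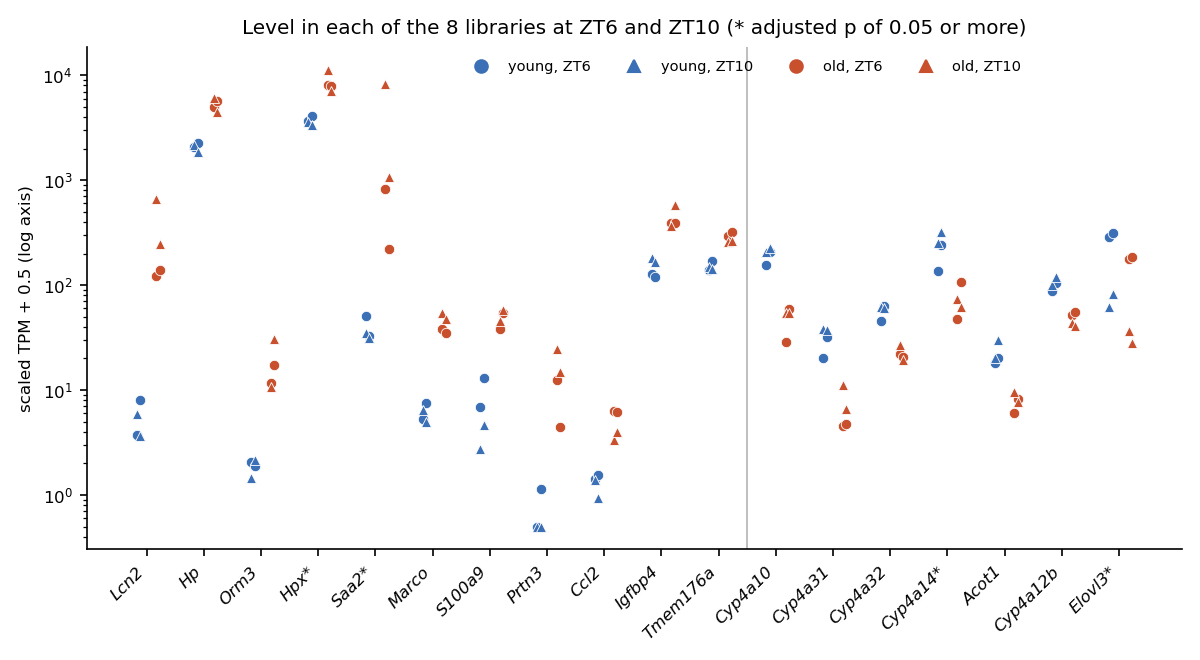
Scaled TPM plus 0.5 on a log axis in each of the 8 libraries, for 11 genes that were higher on average in old (left of the line) and 7 that were lower (right); each point is 1 library, circles ZT6 and triangles ZT10, blue young and red old, and a star marks an adjusted p of 0.05 or more. For Lcn2 the old libraries run from 122 to 668 and the young ones from 3.13 to 7.49, and for Elovl3 the age groups are apart within each time but not across the 2 times.

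Acute phase genes account for 3 of the 13 genes called higher. Of 27 listed and tested, 26 had a positive difference, and 3 passed the test as higher and 0 as lower (0.106% and 0.0409% of all genes). In the positive direction 21 had an unadjusted p under 0.05 (4.89% of all genes). In 18 the old libraries lay above the young ones at both times (4.81% of all genes). The median difference was 0.86 against -0.02 for all genes. Of the 27, 12 passed with the spread of 24 libraries. Some summed leukocyte markers that are not on this list were also at higher levels in old. Those of neutrophils, with Lcn2 left out, were at 4.36 to 20.7 scaled TPM in young and 91.6 to 143 in old libraries, and those of Kupffer cells at 766 to 879 and 1019 to 1749.8. Summed markers of T and NK cells, at 10.7 to 16.6 in young and 15.95 to 35.9 in old, overlapped, as did those of B cells and plasma cells. The part of leukocytes in the acute phase values was not tested. Lcn2 codes for lipocalin 2, a secreted protein that binds bacterial siderophores (chr2:32384633-32388252; coordinates here and below are those of the files, build GRCm38). Its level was 3.22 and 7.49 scaled TPM in the young libraries of ZT6 (replicates 1 and 2, in that order here and below), 5.45 and 3.13 in those of ZT10, 122 and 139 in the old libraries of ZT6 and 668 and 249 in those of ZT10. Every old library was above every young one, the highest being the first replicate of Old ZT10, and the difference of 5.52 ± 0.48 (SE, adjusted p = 0.0139) was the largest of any gene called.

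Hp, which codes for haptoglobin, the plasma carrier of free hemoglobin (chr8:109575130-109579172), was at 2068 and 2275 in young ZT6, 2179 and 1863 in young ZT10, 5015 and 5689 in old ZT6 and 6043 and 4435 in old ZT10. The old libraries kept close to each other, at 5296 ± 715 against 2096 ± 177 in the young (SD, n = 4 each), and the difference was 1.33 ± 0.14 (SE, adjusted p = 0.0144). Orm3, an orosomucoid gene (chr4:63356162-63359511), was at 0.953 to 1.64 scaled TPM in the 4 young libraries and at 11.1 and 16.9 in old ZT6 and 10.3 and 30.3 in old ZT10. Its difference was 3.11 ± 0.33 (SE, adjusted p = 0.0144); the second replicate of Old ZT10 was the highest, not the first as for Lcn2.

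Hemopexin (Hpx, the plasma scavenger of heme) was among the most abundant mRNAs of the list, at 3693 and 4121 in young ZT6, 3566 and 3346 in young ZT10, 8133 and 7875 in old ZT6 and 11261 and 7110.3 in old ZT10. The age groups did not overlap, but its adjusted p was 0.0526 (difference 1.20 ± 0.17, SE), so it did not pass. Saa4, the constitutive serum amyloid A gene, was close to the threshold too, at 131 to 146 in young and 193 to 286 in old libraries (difference 0.86 ± 0.12 SE, adjusted p = 0.0543).

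Saa1 and Saa2, the inducible serum amyloid A genes, had larger differences and more spread. Saa2 was at 50.4 and 32 in young ZT6, 34.2 and 31 in young ZT10, 822 and 219 in old ZT6 and 8234 and 1077 in old ZT10. Every old library was above every young one, but the old libraries were spread widely, and the difference was 4.94 ± 0.83 (SE, adjusted p = 0.0793). Saa1 was at 66.9 to 146 in young and 1199 and 701 in old ZT6 and 8046 and 1319 in old ZT10 (difference 4.18 ± 0.62 SE, adjusted p = 0.0594). Both genes were highest in the first replicate of Old ZT10, as were Lcn2, Hp and Hpx. Saa1 and Saa2 are near-identical copies, so the split of reads between them is uncertain, as it is between Orm1, Orm2 and Orm3.

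The other members ranged from values that did not pass to values near 0. Orm1 was at 784 to 1271 in young and 1752 to 2857 in old, Orm2 at 151 to 287 and 482 to 1083, Saa3, another inducible serum amyloid A gene, at 8.54 to 13.2 and 29 to 126, and Apcs, serum amyloid P, at 115 to 194 and 252 to 800.2; none passed (adjusted p = 0.112, 0.0678, 0.117 and 0.31). Crp, which in mice responds little to inflammation, was at 229.9 to 367 in young and 330.3 to 387 in old, overlapping (difference 0.24 ± 0.14 SE, adjusted p = 0.74). The choice of Saa1, Saa2, Saa3, Orm1, Orm2, Apcs and Crp was made after their values were seen.

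Promoter sequences of 4 of these genes are shown because acute phase promoters are known to bind C/EBP factors, and the letters searched for, TTGCNNAA, are a simple form of the C/EBP motif. The windows run from 250 to 51 bases before the RefSeq start (GRCm38.p6), 5′ to 3′ on the gene's strand, with the matching letters in capitals: Orm3 at chr4:63355908-63356107, plus strand; Hpx at chr7:105600167-105600366, minus strand; Saa1 at chr7:46743031-46743230, minus strand; Saa2 at chr7:46751583-46751782, plus strand.
Orm3: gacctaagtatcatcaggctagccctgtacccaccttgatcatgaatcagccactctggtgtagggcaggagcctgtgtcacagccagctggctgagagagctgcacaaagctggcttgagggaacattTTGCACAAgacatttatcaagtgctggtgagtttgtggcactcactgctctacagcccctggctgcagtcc
Hpx: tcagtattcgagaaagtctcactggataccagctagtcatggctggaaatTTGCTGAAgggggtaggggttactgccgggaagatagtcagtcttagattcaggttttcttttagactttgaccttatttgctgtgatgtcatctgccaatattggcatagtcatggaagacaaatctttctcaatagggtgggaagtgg
Saa1: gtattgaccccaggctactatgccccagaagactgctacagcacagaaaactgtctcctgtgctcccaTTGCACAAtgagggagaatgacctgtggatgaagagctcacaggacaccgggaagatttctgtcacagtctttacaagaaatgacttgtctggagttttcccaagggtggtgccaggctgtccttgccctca
Saa2: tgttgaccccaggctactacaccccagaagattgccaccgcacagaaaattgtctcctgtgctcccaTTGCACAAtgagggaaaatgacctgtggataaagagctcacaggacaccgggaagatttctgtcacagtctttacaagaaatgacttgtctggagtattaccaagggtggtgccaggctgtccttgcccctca
In Orm3 the match began 121 bases before the start, in Hpx 200, in Saa1 182 and in Saa2 183. The Saa1 and Saa2 windows were identical in 188 of 201 aligned columns (93.5%). Over the full 250 bases and both strands, 11 of the 21 acute phase genes with a window held TTGCNNAA (52.4%: Saa1, Saa2, Saa3, Saa4, Orm2, Orm3, Hpx, Lcn2, Fga, Fgb and Steap4), against 3142 of 32851 windows in the whole RefSeq promoter table (9.6%) and 1 of 23 for the fatty acid oxidation list (4.3%, Acot1). Of the genes called higher, 3 of 8 with a window held it (37.5%: Lcn2, Orm3 and S100a9), and of those called lower 1 of 2 (Acot1). The 4 windows shown are all among the 11 with a match, so they do not stand for the whole list. Hp, which was called higher, is not among the 11. A match says that these letters are present, not that a factor binds there.

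Of 20 tested IL-6, IL-1 and STAT3 signalling genes, 0 passed in either direction with limma, 4 had an unadjusted p under 0.05 (all higher in old). The list median was 0.17, and 4.89% of all genes were higher at that unadjusted level. These 4 were Il1r1, the interleukin 1 receptor (0.73, adjusted p = 0.454), the NF-κB regulators Nfkbiz (1.33, 0.504) and Bcl3 (0.60, 0.268), and Cebpd, a C/EBP factor (0.72, 0.3). Il1r1 was at 7.67 and 11.9 in young ZT6, 12 and 11.4 in young ZT10, 10.1 and 10.3 in old ZT6 and 32.6 and 29.6 in old ZT10, so that the old libraries stood apart at ZT10 alone. Stat3 was at 28 to 32 in young and 26.5 to 50.4 in old, overlapping. Socs3, the feedback inhibitor of IL-6 signalling, was at 5.58 and 10.5 in young ZT6, 5.40 and 8.38 in young ZT10, 3.33 and 8.75 in old ZT6 and 18.1 and 24.4 in old ZT10 (difference 0.56 ± 0.47 SE, adjusted p = 0.841). None of the 20 passed with the spread of 24 libraries. Stat3 and Socs3 were chosen after their values were seen.

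Among neutrophil genes S100a9 and Lcn2 rose in old. S100a9, a subunit of the calcium-binding protein calprotectin of neutrophils and monocytes (chr3:90692632-90695721), was at 6.36 and 12.6 in young ZT6, 2.27 and 4.19 in young ZT10, 37.6 and 54.1 in old ZT6 and 44.7 and 57 in old ZT10, a difference of 3.04 ± 0.37 (SE, adjusted p = 0.0256). Its partner S100a8 was at 9.95 and 6.18 in young ZT6, listed at 0 in both young ZT10 libraries, and at 44.1 and 50.4 in old ZT6 and 49.5 and 63.7 in old ZT10. An exact 0 in such files can be a failed estimate, and S100a9 was above 0 in the same 2 libraries. Of 14 neutrophil markers, 5 passed the filter on low levels (a mean of at least 1 scaled TPM), and these had to be high in some group; 2 of them (Lcn2 and S100a9) were called. Lcn2 is also made by hepatocytes and stands on the acute phase list as well. The granule genes that define neutrophils and their precursors were at or near 0: Elane, Mpo, Camp and Ltf were at 0 in all 4 young and both old ZT6 libraries. They reached at most 2.26 scaled TPM in old ZT10. Lcn2 supplied most of the summed level of the 14 markers in every old library: the sum was 7.54 to 28.2 in the young and 214 to 774 in the old libraries with it, and 4.36 to 20.7 and 91.6 to 143 without it. The sum without Lcn2 was taken after the values were seen (exact two-sided permutation p = 0.0556 for either sum, the smallest possible, n = 4 and 4).

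Prtn3, which codes for the granule protease proteinase 3 (chr10:79874476-79883174), was listed at 0 in 3 of the 4 young libraries and at 0.644 in the other one. It was at 12 and 3.94 in old ZT6 and 23.9 and 14.5 in old ZT10, and passed with a difference of 4.28 ± 0.51 (SE, adjusted p = 0.0236), whose size depends on the 0.5 added to levels of 0. Elane, another protease of the same granules, was at 0 in 6 of the 8 libraries, as given above.

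Kupffer cells are the resident macrophages of the liver. All 18 of their listed genes were tested: 16 had a positive difference, 1 passed as higher and 0 as lower, 12 had an unadjusted p under 0.05, 7 had old above young at both times. Over all genes 0.106% were called higher, 4.89% were higher at that unadjusted level and 4.81% had old above young at both times. The median difference of the list was 0.57, and 4 of its genes passed with the spread of 24 libraries. The gene that passed was Marco, a scavenger receptor for bacteria and particles (chr1:120474538-120505024), at 4.83 and 7.03 in young ZT6, 5.97 and 4.51 in young ZT10, 37.3 and 34.2 in old ZT6 and 53.9 and 47.4 in old ZT10. Its difference of 2.84 ± 0.19 (SE, adjusted p = 0.0032) was the one with the smallest p of all genes. The groups were far apart: the lowest old library was at 34.2 and the highest young at 7.03.

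Other macrophage genes had smaller differences. Lyz2, lysozyme, was at 88.5 to 126 in young and 169.7 to 286 in old (difference 1.08 ± 0.20 SE, adjusted p = 0.0998). Mpeg1, the pore-forming perforin 2, was at 30.8 to 46.6 and 60.5 to 116 (difference 0.97 ± 0.22 SE, adjusted p = 0.173). Cd68, a lysosomal glycoprotein, was at 10.4 to 13.5 and 16.1 to 25.2 (difference 0.62 ± 0.14 SE, adjusted p = 0.173). In these 3 genes the ages did not overlap, and none passed. Clec4f and Timd4, which mark resident Kupffer cells, overlapped. Clec4f was at 67 to 92.5 in young and 81.4 to 140.0 in old (difference 0.30 ± 0.19 SE, adjusted p = 0.756). Timd4 was at 5.69 to 7.07 and 6.16 to 9.43 (difference 0.23 ± 0.16 SE, adjusted p = 0.789). Vsig4 and Cd5l were highest in the second replicate of Old ZT10, at 110.4 and 281, against 41.8 to 53.8 and 94.2 to 100.3 in the young (adjusted p = 0.562 and 0.178). These 4 genes were chosen after their values were seen. The summed level of the 18 was 766 to 879 in young and 1019 to 1749.8 in old libraries (exact two-sided permutation p = 0.0556, n = 4 and 4).

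Of 16 markers of monocyte-derived macrophages and dendritic cells, 6 passed the filter on low levels, which a gene can do through 1 age alone. Of these 6, 0 were called and 4 had an unadjusted p under 0.05, all higher in old (4.89% of all genes were higher at that level). They were Lgals3, galectin 3 (5.52 to 7.08 in young, 8.67 to 16 in old, difference 0.93 ± 0.20 SE, adjusted p = 0.15), Plac8 (13.2 to 23.7 and 27.2 to 41.4, adjusted p = 0.3), Ly6c2 (1.31 to 2.28 and 2.96 to 4.38, adjusted p = 0.294) and the chemokine receptor Ccr2 (0.67 to 1.19 and 1.09 to 4.11, adjusted p = 0.414). The sum of the 16 was 78.2 to 111 in young and 115 to 164 in old libraries. The part of leukocyte content in the chemokine and antigen presentation values below was not tested.

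Chemokines draw leukocytes into tissue. Of 13 tested, 9 had a positive difference, 1 passed as higher and 0 as lower, 7 had an unadjusted p under 0.05 and 6 had old above young at both times. The shares over all genes were 0.106% called higher, 4.89% higher at that unadjusted level and 4.81% with old above young at both times. The list median was 0.67. Ccl2, which attracts monocytes through Ccr2 (chr11:82035571-82037453), was at 0.922 and 1.05 in young ZT6, 0.906 and 0.445 in young ZT10, 5.80 and 5.63 in old ZT6 and 2.83 and 3.51 in old ZT10 (difference 1.86 ± 0.20 SE, adjusted p = 0.0144). These are low levels, with the old libraries of ZT6 the highest. Cxcl1, which attracts neutrophils, was at 4.72 and 7.63 in young ZT6, 4.64 and 8.31 in young ZT10, 15.2 and 59.8 in old ZT6 and 63 and 163 in old ZT10 (difference 3.08 ± 0.54 SE, adjusted p = 0.0944). The ages did not overlap, and the old libraries were spread widely.

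Cxcl13, which attracts B cells, was at 1.96 to 5.15 in young and 7.11 to 67.1 in old, again highest in the second replicate of Old ZT10 (difference 2.28 ± 0.67 SE, adjusted p = 0.31; chosen after its values were seen). Ccl6 was at 16.3 to 24.9 and 26.6 to 81 (difference 1.24 ± 0.30 SE, adjusted p = 0.209). Cxcl16 was at 5.47 to 7.43 and 7.44 to 11.8 (difference 0.67 ± 0.15 SE, adjusted p = 0.173). Neither passed; the ages did not overlap, for Cxcl16 by a narrow margin. Of the 13 chemokines, 3 passed with the spread of 24 libraries.

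Immunoglobulin mRNA, made by B cells and plasma cells, was higher in old for most genes tested, without passing. In Igkc, Ighm and Ighg2c every old library lay above every young one. Of 9 tested constant region genes and the J chain, 0 were called, 8 had an unadjusted p under 0.05 in the positive direction and 7 had old above young at both times. The last 2 shares over all genes were 4.89% and 4.81%. The median of these 9, of 14 listed, was 2.62. A gene that is low in the young can pass the filter on low levels through the old libraries alone. The counts and the median can therefore partly follow from the filter. Igkc, the kappa light chain constant region, was at 14.2 and 43.1 in young ZT6, 11.3 and 19.1 in young ZT10, 82.2 and 405 in old ZT6 and 108 and 131 in old ZT10 (difference 2.92 ± 0.51 SE, adjusted p = 0.0944). Ighm, the IgM heavy chain, was at 5.27 to 8.21 in young and at 24.4 and 182 in old ZT6 and 21 and 51.6 in old ZT10 (difference 2.77 ± 0.57 SE, adjusted p = 0.138). Ighg2c, an IgG heavy chain, was at 0.76 to 6.54 and 9.94 to 23.2 (difference 2.69 ± 0.43 SE, adjusted p = 0.0678). The second replicate of Old ZT6 was the highest library for Igkc, Ighm and Ighg2c. Of the 9, 5 passed with the spread of 24 libraries. Summed plasma cell markers were at 168 to 285 in young and 236 to 584 in old libraries and B cell markers at 2.72 to 7.43 and 4.15 to 7.15, overlapping in both cases. The variable segment Igkv5-39 was at 0 to 0.993 in young and 2.50 to 10.5 in old (adjusted p = 0.0518).

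Other genes that passed as higher belong to none of these groups. Igfbp4 codes for a secreted protein that binds insulin-like growth factors (chr11:99041244-99054392). It was at 127 and 119 in young ZT6, 179 and 167 in young ZT10, 389 and 387 in old ZT6 and 362 and 578 in old ZT10, a difference of 1.53 ± 0.15 (SE, adjusted p = 0.0144). The old libraries were close to each other except the second replicate of Old ZT10, which was the highest. With the spread of 24 libraries its adjusted p was 0.0693, so that it no longer passed. The other 21 tested genes of the insulin and IGF list gave 0 calls. Igfals, the acid-labile subunit that holds IGF in plasma, was at 32.3 to 52.7 in young and 24.1 to 37.5 in old (difference -0.45 ± 0.13 SE, adjusted p = 0.312).

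Tmem176a, a membrane protein gene (chr6:48841483-48845364), was at 140.0 to 168 in young and 259.6 to 321 in old (difference 0.92 ± 0.10 SE, adjusted p = 0.0182). It kept its call in 2 of the 8 fits that left out a library, with an adjusted p of up to 0.0897, and lost it with quantile normalization. Serpine2, a secreted protease inhibitor, was at 2.19 to 4.38 and 8.54 to 12.6 and did not pass (difference 1.60 ± 0.23 SE, adjusted p = 0.0526). Slc22a27, an organic anion transporter gene (chr19:7864388-7966027), was listed at 0 in the first replicate of Young ZT10 and at 0.244 to 0.358 in the other young libraries. It was at 2.43 and 3.58 in old ZT6 and 5.20 and 6.87 in old ZT10 (difference 2.75 ± 0.31 SE, adjusted p = 0.0182), and with the spread of 24 libraries its adjusted p was 0.0882, which does not pass. The last 3 called genes, 2610305D13Rik, Gm13139 and Gm13251, are predicted genes within a stretch of chromosome 4 (chr4:147611937-147642513, chr4:147132038-147180579 and chr4:146449023-146470292), where related gene copies make the assignment of reads uncertain. Their old levels were 2.12 to 3.31, 4.81 to 7.11 and 3.29 to 4.69 and their young levels 0.114 to 0.372, 1.18 to 2.21 and 0.728 to 1.38 (adjusted p = 0.0144, 0.0422 and 0.0422). Gm13139 and Gm13251 kept their call in 0 of the 8 fits that left out a library (adjusted p up to 0.149 and 0.144), and lost it with quantile normalization, with 0.1 added in place of 0.5 and without the filter on low levels. Gm13251 lost it with the replicate block as well. Slc22a27 and these 3 genes were named after their values were seen.

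**Figure D2:**
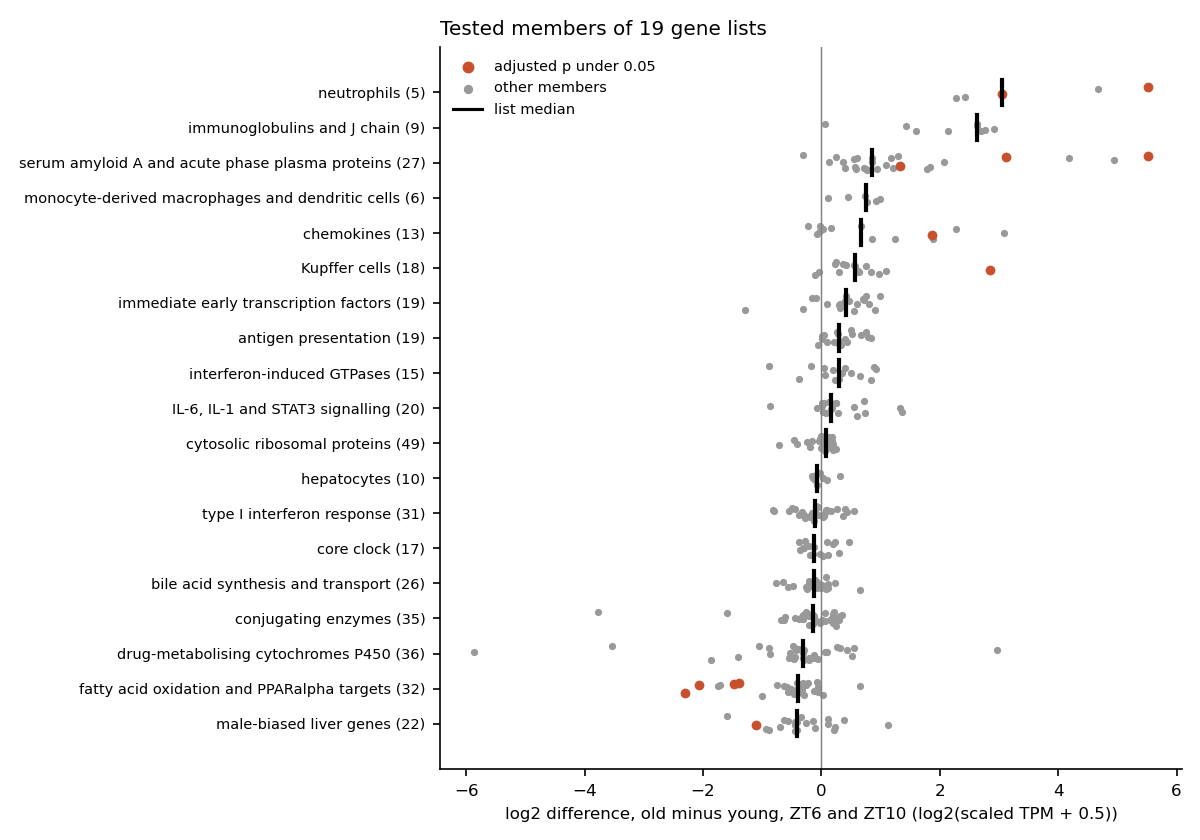
Log2 difference (old minus young at ZT6 and ZT10) of each tested member of 19 gene lists, with the number tested in brackets; each grey point is 1 gene, red points have an adjusted p under 0.05 and the black bar is the list median; the 3 points below -3 (Cyp2a4, Ugt2b37 and Cyp3a16) are genes listed at 0 in some young or old libraries and did not pass. The medians of the neutrophil list (3.04) and the immunoglobulin list (2.62) cover only the 5 of 14 and 9 of 14 members past the filter on low levels, whereas that of the acute phase list (0.86) covers all 27, and fatty acid oxidation and male-biased genes have the lowest medians of those shown (-0.40 and -0.41).

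Of the 5 genes called lower in old, 4 stand on the list of fatty acid oxidation genes and PPARα targets, called fatty acid oxidation for short throughout. They are the omega-hydroxylase genes Cyp4a10, Cyp4a31 and Cyp4a32 and the thioesterase gene Acot1, not enzymes of beta-oxidation. Of 32 of its genes tested, 30 had a negative difference, 4 passed as lower and 0 as higher, 17 had an unadjusted p under 0.05 in the negative direction and 1 in the positive, and 16 had old below young at both times. Over all genes 0.0409% were called lower, 3.71% were lower at that unadjusted level and 4.55% had old below young at both times. The list median was -0.40. With the spread of 24 libraries, 5 passed. All 3 Cyp4a genes among the 4, and Cyp4a12b, which stands on another list, lie in a cluster on chromosome 4 and code for cytochromes P450 that hydroxylate the far end of fatty acids.

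Cyp4a10 (chr4:115518264-115533649) was at 156 and 206 in young ZT6, 208 and 225 in young ZT10, 27.9 and 58.9 in old ZT6 and 53.2 and 53.6 in old ZT10, a difference of -2.07 ± 0.22 (SE, adjusted p = 0.0144). Cyp4a31 (chr4:115563649-115579015) was at 19.8 and 31.9 in young ZT6, 37.9 and 36.9 in young ZT10, 4.03 and 4.26 in old ZT6 and 10.8 and 6.09 in old ZT10 (difference -2.30 ± 0.21 SE, adjusted p = 0.0144), the largest difference among genes called lower. Cyp4a32 (chr4:115600969-115621602) was at 45.2 to 62.3 in young and 18.7 to 26.2 in old (difference -1.39 ± 0.15 SE, adjusted p = 0.0144). In all 3 genes the highest old library was below the lowest young one. Cyp4a14 (chosen after its values were seen) was also apart at 136 to 323 in young and 47.3 to 107 in old, but varied more and did not pass (difference -1.71 ± 0.30 SE, adjusted p = 0.0944). These genes are close copies, and reads may be split between them.

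Acot1 (chr12:84009502-84017670), a cytosolic thioesterase that frees fatty acids from coenzyme A, was at 17.5 and 19.5 in young ZT6, 19.8 and 29.6 in young ZT10, 5.50 and 7.76 in old ZT6 and 9.08 and 7.14 in old ZT10 (difference -1.48 ± 0.17 SE, adjusted p = 0.0214). Its mitochondrial relative Acot2 was at 5.35 to 9.55 in young and 2.19 to 3.59 in old and did not pass (difference -0.998 ± 0.18 SE, adjusted p = 0.0944). Crat, the carnitine acetyltransferase, was at 15.1 to 26.9 and 5.12 to 9.45 (difference -1.47 ± 0.23 SE, adjusted p = 0.0678).

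The core enzymes of beta-oxidation had smaller differences. Ehhadh, the peroxisomal bifunctional enzyme, was at 120.3 to 179 in young and 90.1 to 115 in old (difference -0.63 ± 0.16 SE, adjusted p = 0.22). The mitochondrial Cpt2 was at 53.2 to 90.8 and 43.5 to 58.2 (difference -0.59 ± 0.16 SE, adjusted p = 0.259). For Cpt1a, the entry step of mitochondrial oxidation, the ages overlapped, at 96.2 to 214 in young and 87 to 155 in old (difference -0.39 ± 0.17 SE, adjusted p = 0.589). Ppara itself was at 50.2 and 60.8 in young ZT6, 94 and 77.4 in young ZT10, 31.1 and 48.4 in old ZT6 and 48 and 71.5 in old ZT10 (difference -0.52 ± 0.19 SE, adjusted p = 0.438). These 4 genes were chosen after their values were seen, and none passed.

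In the list of lipid droplet and fatty acid uptake genes, 0 of 22 passed, with 2 higher and 3 lower at an unadjusted p under 0.05. Fitm1, an endoplasmic reticulum protein of lipid droplet formation, was at 19.9 to 29.3 in young and 41.1 to 65.7 in old (difference 1.14 ± 0.18 SE, adjusted p = 0.0678). The fatty acid receptor Cd36 was at 21.1 to 23.3 and 26 to 52.1 (difference 0.73 ± 0.20 SE, adjusted p = 0.279). Slc27a2 and Plin5, an acyl-CoA synthetase and a droplet coat protein, had differences of -0.38 ± 0.10 and -0.44 ± 0.14 (SE; adjusted p = 0.268 and 0.343).

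Of 22 tested genes known for more mRNA in male than in female mouse liver, 16 had a negative difference, 1 passed as lower and 0 as higher, 9 had an unadjusted p under 0.05 in the negative direction, and 8 had old below young at both times. The shares over all genes were 0.0409% called lower, 3.71% lower at that unadjusted level and 4.55% with old below young at both times. The list median was -0.41, and 3 of its genes passed as lower with the spread of 24 libraries. Cyp4a12b (chr4:115411624-115439034) was at 87.4 and 104 in young ZT6, 99.4 and 119.7 in young ZT10, 51.2 and 55.5 in old ZT6 and 43.2 and 40.4 in old ZT10 (difference -1.10 ± 0.15 SE, adjusted p = 0.0417). It lost its call in each of the 8 fits that left out a library, where its adjusted p reached 0.164. Its near-identical neighbour Cyp4a12a was at 179 to 229 and 94.7 to 127 (difference -0.89 ± 0.13 SE, adjusted p = 0.0611). Slco1a1, an organic anion transporter, was at 292 to 393 in young and 168 to 281 in old, and the glucuronosyltransferase Ugt2b1 at 441 to 587 and 342 to 413 (adjusted p = 0.211 and 0.204). Among 12 tested female-biased genes, 0 passed, with 2 higher and 3 lower at an unadjusted p under 0.05. Cyp2b9 was at 0 and 0.304 in young ZT6, 0.236 and 4.73 in young ZT10, 2.16 and 7.29 in old ZT6 and 10.4 and 25 in old ZT10 (difference 2.97 ± 0.63 SE, adjusted p = 0.15).

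Of 36 tested genes of drug-metabolising cytochromes P450, their partners and regulators, 0 passed; 28 had a negative difference, 14 had an unadjusted p under 0.05 in the negative and 3 in the positive direction. At that level 3.71% of all genes were lower and 4.89% higher. The list median was -0.31. With the spread of 24 libraries 0 passed as well. Cyp3a11, the main drug-oxidising enzyme of the mouse Cyp3a family, was at 3304 and 3233 in young ZT6, 2385 and 3807 in young ZT10, 1591 and 2217 in old ZT6 and 1545 and 1621 in old ZT10 (difference -0.86 ± 0.18 SE, adjusted p = 0.138). Every old library was below every young one. Cyp3a13 went the other way, at 71.1 to 94.2 in young and 105 to 142 in old (difference 0.54 ± 0.12 SE, adjusted p = 0.178). Cyp2c40 was at 84.8 to 106 and 68.6 to 77.9 (difference -0.46 ± 0.11 SE, adjusted p = 0.211).

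Conjugating enzymes gave 0 calls among 35 tested, with 1 higher and 6 lower at an unadjusted p under 0.05 (median -0.14). Gstp1, a glutathione transferase that is higher in male liver, was at 1189.6 to 1607 in young and 694 to 1182 in old (difference -0.63 ± 0.18 SE, adjusted p = 0.3). Bile acid synthesis and transport genes also gave 0 calls among 26, with 0 higher and 5 lower at that level (median -0.12). Over all genes 4.89% were higher and 3.71% lower at that level. Cyp8b1, which sets the share of cholic acid, was at 165 and 192 in young ZT6, 176 and 108 in young ZT10, 163 and 111 in old ZT6 and 75 and 52.9 in old ZT10 (difference -0.77 ± 0.24 SE, adjusted p = 0.343). Abcb4, the phospholipid exporter of bile, was at 76 to 111 in young and 56.4 to 80.2 in old (difference -0.48 ± 0.15 SE, adjusted p = 0.342).

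Of 21 tested genes of iron, copper and zinc handling, 0 passed, with 5 higher and 1 lower at an unadjusted p under 0.05 (4.89% and 3.71% over all genes) and a median of 0.09. Of these, 2 passed as higher with the spread of 24 libraries. Of 22 glucocorticoid-induced genes, 1 passed as higher (Lcn2) and 0 as lower, with 6 higher at an unadjusted p under 0.05 and a median of 0.11; the list shares Lcn2, Mt1 and Mt2 with others here. Mt1, a zinc-binding metallothionein, was at 20.0 and 48.3 in young ZT6, 55.8 and 67.7 in young ZT10, 36.1 and 96.9 in old ZT6 and 2591 and 652 in old ZT10 (difference 2.65 ± 0.78 SE, adjusted p = 0.31). Mt2 was at 5.40 and 17.7 in young ZT6, 18.3 and 16.7 in young ZT10, 15.3 and 55.4 in old ZT6 and 2508 and 743 in old ZT10 (difference 3.88 ± 0.98 SE, adjusted p = 0.223). Both genes were far higher in the 2 old ZT10 libraries than in the other 6, the first replicate more so, and the ages overlapped at ZT6. Hamp, hepcidin, the iron-regulating hormone, was at 1882 to 2899.9 in young and 3640.5 to 4572 in old (difference 0.72 ± 0.16 SE, adjusted p = 0.175). Slc39a14, a zinc and iron importer, was at 47.7 to 66.6 and 62.7 to 121 (difference 0.61 ± 0.13 SE, adjusted p = 0.16).

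Of 19 antigen presentation genes tested, 18 had a positive difference, 0 passed, 6 had an unadjusted p under 0.05 and 4 had old above young at both times (median 0.29). Over all genes 4.89% were higher at that unadjusted level and 4.81% had old above young at both times. Cd74, the invariant chain of MHC class II, was at 76.9 and 69.3 in young ZT6, 59.4 and 58.6 in young ZT10, 81.9 and 93.4 in old ZT6 and 125 and 157 in old ZT10 (difference 0.75 ± 0.20 SE, adjusted p = 0.275). H2-Aa, a class II chain (chosen after its values were seen), was at 37.6 to 54.4 and 46.8 to 104 (difference 0.83 ± 0.24 SE, adjusted p = 0.302). Of 15 interferon-induced GTPases 0 passed (1 higher and 1 lower at an unadjusted p under 0.05), and the list median was -0.28 at ZT6 and 0.69 at ZT10. The type I interferon response list gave 0 calls among 31, with 0 higher and 1 lower at that level, and a median of -0.11.

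Of 17 core clock genes tested, 0 passed, 1 had an unadjusted p under 0.05 (Cry2, 9.59 to 15.5 in young and 7.97 to 12 in old, difference -0.28 ± 0.11 SE, adjusted p = 0.513). The median was -0.13. Cry1 (chosen after its values were seen) was at 3.08 and 3.41 in young ZT6, 4.25 and 3.20 in young ZT10, 2.04 and 2.01 in old ZT6 and 2.57 and 3.90 in old ZT10 (difference -0.38 ± 0.19 SE, adjusted p = 0.642). Among 19 immediate early transcription factors 0 passed, 3 were higher and 1 lower at that level. The median was 0.42. Myc, a growth regulator, was at 1.73 and 5.22 in young ZT6, 6.16 and 9.06 in young ZT10, 0.817 and 0.435 in old ZT6 and 4.08 and 3.49 in old ZT10 (difference -1.29 ± 0.33 SE, adjusted p = 0.227). Klf6, a zinc finger factor, was at 3.69 to 4.66 and 5.14 to 7.11 (difference 0.46 ± 0.15 SE, adjusted p = 0.362). Of the 13 mitochondrially encoded genes, 12 had a negative difference, 0 passed, and mt-Nd6 was the 1 with an unadjusted p under 0.05 (918 to 1374 and 651 to 1185, difference -0.59 ± 0.22 SE, adjusted p = 0.458). Their median was -0.12.

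Several large gene groups had medians near that of all genes. The proteasome (33 genes tested), gluconeogenesis, glycolysis and glycogen (29), heat shock chaperones (17), the unfolded protein response (29), lipogenesis (21), the urea cycle and amino acid breakdown (26) and major urinary proteins (16) gave 0 calls each, with medians of 0.02, -0.05, 0.03, 0.02, 0.03, -0.02 and 0.02. Cholesterol synthesis (24) had a median of 0.19, with 18 genes higher, and the nuclear respiratory chain (38) one of -0.09, with 34 lower. Neither list had a call. Cytosolic ribosomal proteins (49), ribosome biogenesis (29), complement and coagulation (33), NRF2 targets (22), NAD synthesis and sirtuins (21) and senescence and cell cycle genes (17) gave 0 calls as well, with medians of 0.07, -0.09, 0.09, -0.12, -0.12 and -0.15. At an unadjusted p under 0.05 these 15 lists held 0 to 5 higher and 0 to 3 lower genes each, with 5 higher in complement and coagulation and 3 lower in each of the respiratory chain, ribosome biogenesis and NRF2 lists.

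Among the genes that came closest to passing as lower were 3 outside these lists. Hsd17b6, a hydroxysteroid dehydrogenase, was at 258 to 364 in young and 159.6 to 224 in old (difference -0.79 ± 0.14 SE, adjusted p = 0.0944). Car14, a membrane carbonic anhydrase, was at 22.2 to 34.5 and 14.3 to 21.7 (difference -0.68 ± 0.11 SE, adjusted p = 0.0729). Rangap1, an activator of the GTPase Ran, was at 16.9 to 25 and 11.7 to 16.5 (difference -0.59 ± 0.10 SE, adjusted p = 0.0937). In all 3 every old library was below every young one.

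The 2 times were then compared with each other. The difference between the ages was itself different at ZT10 and ZT6 for 4 of 12223 genes (0.0327%), 2 more positive and 2 more negative at ZT10. An unadjusted p under 0.05 was reached by 354 of the 12223, a share below the 0.05 expected where no gene differs. All 4 called genes rest on groups listed at 0. Trex1, a DNA exonuclease, was listed at 0 in both Young ZT6 and both Old ZT10 libraries, and at 8.37 and 7.72 in young ZT10 and 6.63 and 7.60 in old ZT6. Pet117, a cytochrome oxidase assembly factor, was at 0 in the same 4 libraries, at 3.30 and 5.62 in young ZT10 and at 4.95 and 6.10 in old ZT6. The predicted gene Gm7729 had the opposite pattern, at 5.90 and 5.71 in young ZT6, 5.54 and 5.52 in old ZT10 and 0 elsewhere. The fourth was S100a8, at 0 in both Young ZT10 libraries. Their adjusted p-values were 0.000778, 0.00537, 0.00104 and 0.0143. Without the first or without the second replicate of Young ZT10 S100a8 no longer passed (adjusted p up to 0.119), nor did Pet117 without the second (0.0573). The count was 24 without the first replicate of Old ZT6, 10 without the second, 9 without the second of Old ZT10 and 2 without the second of Young ZT10.

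Acute phase and leukocyte lists had larger medians at ZT10 than at ZT6, and this was not called for any single gene other than S100a8. The acute phase median was 0.62 at ZT6 and 1.26 at ZT10, that of neutrophil genes 2.26 and 3.82, and that of Kupffer cell genes 0.21 and 0.88. The neutrophil medians cover only the 5 of 14 members past the filter on low levels, which a gene can pass through its highest group alone. Fatty acid oxidation stood at -0.35 and -0.48. Tgtp1 and Tgtp2, a near-identical pair of interferon-induced GTPases, stood apart in old ZT10, with Tgtp1 at 5.66 and 5.81 in young ZT6, 7.33 and 4.10 in young ZT10, 4.82 and 3.44 in old ZT6 and 35.7 and 23.2 in old ZT10. The difference between times was 2.73 ± 0.46 for Tgtp1 and 2.67 ± 0.46 for Tgtp2 (SE, adjusted p = 0.657 and 0.657). Lin37, a subunit of a cell cycle repressor complex, was at 9.999 and 10.3 in young ZT6, 10.7 and 10.1 in young ZT10, 11.5 and 8.46 in old ZT6 and 3.34 and 3.39 in old ZT10 (difference between times -1.46 ± 0.28, adjusted p = 1). H2-DMa, a peptide-loading subunit of MHC class II, was at 6.47 and 5.68 in young ZT6, 2.08 and 3.03 in young ZT10, 3.05 and 2.78 in old ZT6 and 4.99 and 5.91 in old ZT10, with old below young at ZT6 and above it at ZT10 (difference between times 1.92 ± 0.33, adjusted p = 0.657).

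**Figure D3:**
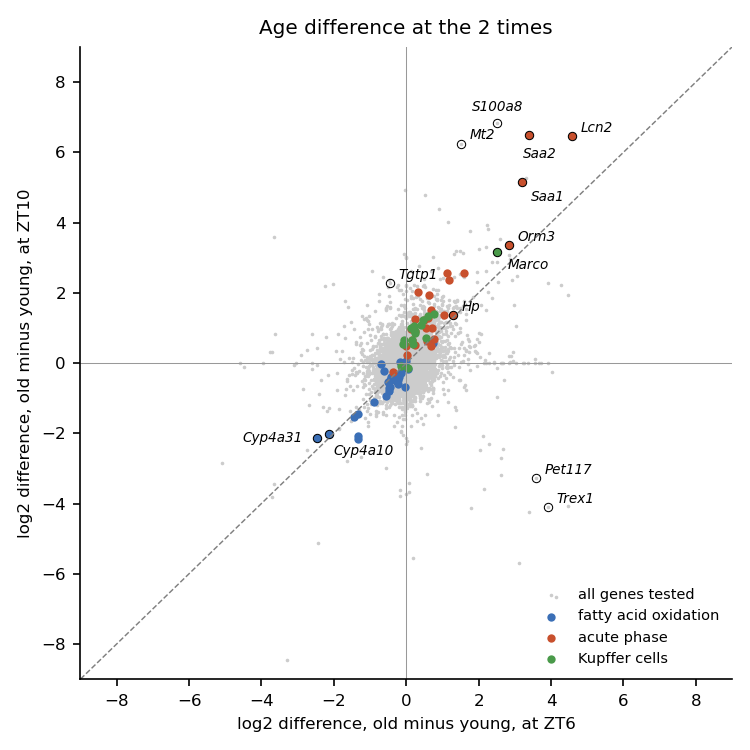
Log2 difference between old and young at ZT6 (horizontal axis) and at ZT10 (vertical axis) for all genes tested (grey) and the tested members of 3 lists (colours), with the dashed line where both are equal. Acute phase and Kupffer cell genes lie mostly above the line, with Lcn2 at 4.58 and 6.46, and Trex1 and Pet117, each with groups listed at 0, lie far from it.

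Last, the age difference at ZT6 and ZT10 was set against that at the other 4 times, in a model of all 24 libraries. Of 12234 genes 1 differed (0.00817%), with 436 more positive and 406 more negative in the late light at an unadjusted p under 0.05. The gene was Elovl3, an elongase of very long chain fatty acids that is strongly rhythmic and higher in male liver (chr19:46131897-46135307). It was at 285 and 314 in young ZT6, 61.2 and 82.3 in young ZT10, 176 and 183 in old ZT6 and 36.4 and 27.6 in old ZT10, so that old lay below young at both times. At ZT2 the ages overlapped, at 804 and 665 in young and 706 and 678 in old, and at ZT14 they were close, at 22.4 and 22.2 and 25.8 and 22.7. At ZT18 it was at 219 and 214 in young and 379.7 and 439 in old, and at ZT22 at 541 and 645 in young and 705 and 979 in old, so that old lay above young. The age difference in the late light minus that at the other times was -1.30 ± 0.17 (SE, adjusted p = 0.012). Without the second replicate of Young ZT10 it missed the threshold (adjusted p = 0.074). In the 8 late light libraries alone, its age difference was -0.94 ± 0.15 (SE, adjusted p = 0.0729).

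Lcn2 and Prtn3 came next among genes with a more positive difference in the late light, at 4.30 ± 0.71 and 3.15 ± 0.52 (SE, adjusted p = 0.0742 for both). At the other times Lcn2 in old liver was at 72 and 9.06 at ZT2, 11.7 and 36.1 at ZT14, 7.40 and 6.40 at ZT18 and 6.93 and 7.98 at ZT22. In young liver it was at 8.54 and 4.19, 5.11 and 5.56, 11.2 and 2.50 and 6.07 and 3.14 at these times. Both old libraries thus lay above both young ones at ZT2, ZT14 and ZT22, and the ages overlapped at ZT18. Hp in old liver was at 5119 and 2312 at ZT2, 3846 and 3276 at ZT14, 2542 and 3038 at ZT18 and 2487 and 3093 at ZT22, and in young liver at 2596 and 2323, 2465 and 2145, 3283 and 2309.7 and 2410.3 and 2090.4. Its old libraries lay above the young ones at ZT14 and ZT22 and overlapped them at ZT2 and ZT18. The difference of Hp between late light and other times did not pass (0.97 ± 0.26 SE, adjusted p = 0.36). Tifa, an adaptor of NF-κB signalling, had a difference of 1.33 ± 0.25 and Tmem258, a subunit of the oligosaccharyltransferase complex, one of 1.59 ± 0.27 (adjusted p = 0.224 and 0.0742). Tifa was at 12.3 and 14.9 in young and 117 and 62.4 in old ZT10. Slc25a20, the carnitine carrier of mitochondria, Osbpl1a, a lipid-binding protein, and Csrp2bp, an acetyltransferase subunit, had more negative differences in the late light, at -0.52 ± 0.11, -0.68 ± 0.14 and -0.95 ± 0.20 (SE, adjusted p = 0.356 for each).

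Counts in this comparison moved with single libraries too: the number more positive in the late light was 0 in the full fit, 25 without the first replicate of Young ZT18, 10 without the first of Old ZT6 and 6 without the second of Old ZT10. Medians of the lists at the other times were 0.19 for acute phase genes, 0.94 for neutrophil genes, 0.01 for Kupffer cell genes and -0.02 for fatty acid oxidation, against 0.86, 3.04, 0.57 and -0.40 in the late light. The neutrophil medians cover only the 5 of 14 members past the filter on low levels. That filter used the late light libraries, so it can itself raise the late light median above that of the other times. Single called members differed by age at other times too. At ZT2 Marco was at 3.86 and 4.87 in young and 16.2 and 16.1 in old. Its old libraries also lay above the young ones at ZT14 and ZT22 and overlapped them at ZT18. Cyp4a10 was at 89.1 and 134 in young ZT2 and 33.8 and 65.7 in old ZT2. Its old libraries also lay below the young ones at ZT22 and overlapped them at ZT14 and ZT18. Immunoglobulins, with the 9 of 14 members past the same filter, stood at 1.98 at the other times and 2.62 in the late light. Male-biased genes stood at -0.36 and -0.41. Igkc in old liver was at 89.5 and 99.3 at ZT2 and 114 and 121 at ZT18, against 16.3 and 29.6 at ZT2 and 19.7 and 28.4 at ZT18 in young, with a difference between late light and other times of 0.38 ± 0.58 (SE, adjusted p = 0.9).

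**Figure D4:**
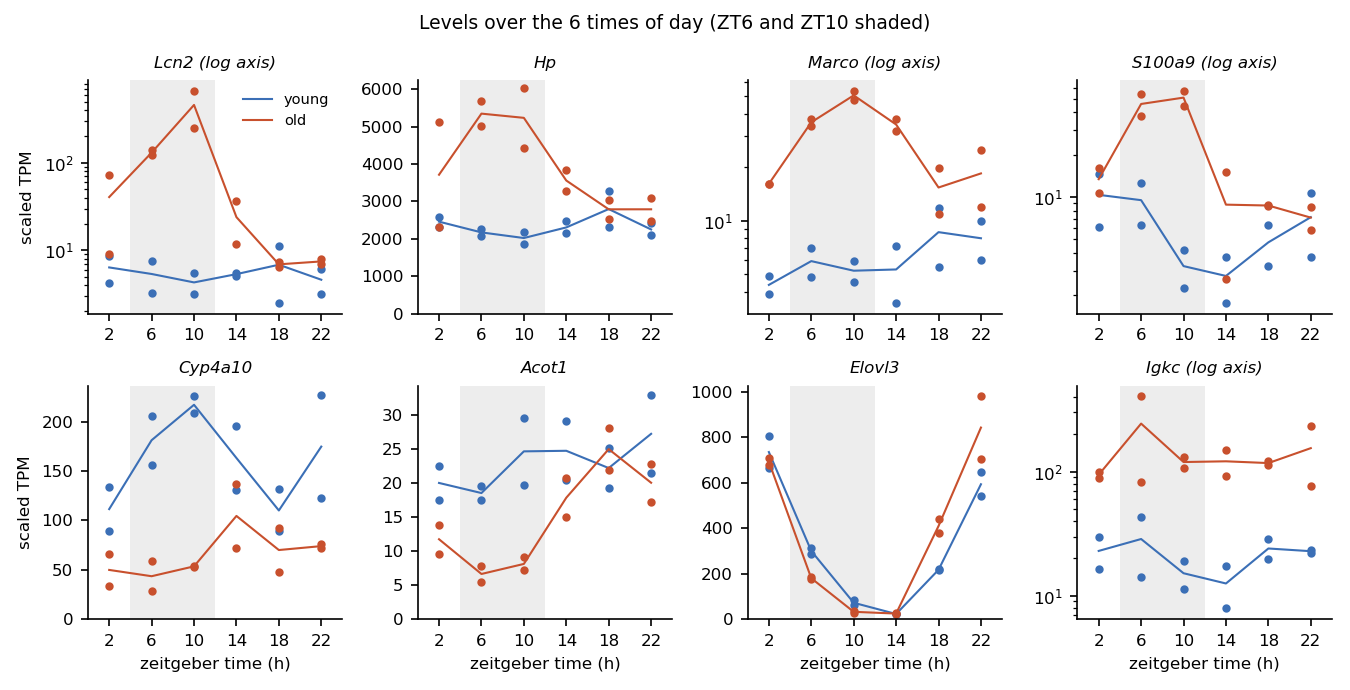
Scaled TPM of 8 genes over the 6 times of day in young (blue) and old (red) liver; each point is 1 library, lines join the means of 2 libraries, ZT6 and ZT10 are shaded, and 4 panels have a log axis. Old Lcn2 peaks at ZT10 (668 and 249) and is at 6.93 and 7.98 at ZT22, whereas old Igkc is above young at every time and for Acot1 the ages are apart at ZT2, ZT6 and ZT10 and overlap later.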

How the data were processed

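Messenger RNA of liver was selected with oligo-dT and sequenced strand-specifically as single 50-base reads, per the labels' protocols. HISAT2, StringTie and GRCm38 are named in the submitters' processing notes; versions were not given in the sources used here. The authors deposited TPM, FPKM and coverage per gene for each library; TPM was used for the results, FPKM for an alternative and coverage for the depth.

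Rows of 1 gene ID were summed, and libraries were scaled by median-of-ratios factors. limma 3.58.1 (R 4.3.3, empirical Bayes with a trend) was fitted to log2(scaled TPM + 0.5) with age and time as terms, for genes with a mean of at least 1 scaled TPM, with Benjamini-Hochberg adjustment and a threshold of 0.05. The ZT10 against ZT6 test used 4 groups, and the test against other times 12 groups of 24 libraries. The script was tested on simulated data.

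Named genes were up to 12 per direction of at least 5 scaled TPM, up to 4 per described list by smallest p, and 4 per direction for the differences between times; exceptions are stated. Members and lists were chosen with earlier results of these data known. The labels do not say whether replicate numbers pair libraries, so the main fit had no block for them.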

Additional observations from a re-analysis of the deposited data

Results flagged for a closer look

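In 10 of 242 groups of 4 libraries of 1 age (121 named genes), 1 library lay far from the other 3. Chance alone flags about 1 in 20 groups drawn from 1 distribution. These groups join 2 times and genes named partly for a small p, so the 2 rates cannot be compared. Among genes called, Cyp4a10 was at 27.9 scaled TPM in the first replicate of Old ZT6, below the other old libraries, and Cyp4a32 was at 45.2 in the first replicate of Young ZT6, below the other young ones. Igfbp4 was at 578 in the second replicate of Old ZT10, above the other old libraries, and Prtn3 was at 0.644 in the second replicate of Young ZT6 and listed at 0 in the other 3 young libraries. Among genes that did not pass, Acot2 was at 2.19 in the first replicate of Old ZT6, Cxcl16 at 7.43 in the first of Young ZT10, Cyp2c40 at 77.9 in the second of Old ZT10, Cyp3a11 at 2217 in the second of Old ZT6, and Il1r1 and Mt2 at 7.67 and 5.40 in the first of Young ZT6.

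The age difference itself differed between times for 5 genes by limma's test of the difference. From ZT6 to ZT10 it moved by -8.02 for Trex1, -6.85 for Pet117, 7.25 for Gm7729 and 4.31 for S100a8 on the log2 scale, each with groups listed at 0. Between the late light and the other 4 times it differed by -1.30 for Elovl3.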

How the results depend on the processing

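The count of genes higher in old, 13, was 86 with the spread of 24 libraries, 28 with TPM left unscaled, 5 at ZT6 alone and 8 at ZT10 alone, and 1 to 22 when 1 library was left out. The count lower in old, 5, was 20, 9, 1 and 2 under the same settings and 0 to 5 when 1 library was left out. The count that differed between ZT10 and ZT6, 4, was 1 with a filter at 5 TPM and 2 to 24 when 1 library was left out. The count more positive in the late light than at the other times, 0, was 1 with unscaled TPM, 3 with FPKM, 1 with quantile normalization, 1 with no filter and 0 to 25 when 1 library was left out; the count more negative, 1, was 3 with no filter and 0 to 3. At ZT6 alone the sign turned for 4 uncalled genes: Clec4f (-0.0574), Crp (-0.0149), Socs3 (-0.458) and Timd4 (-0.0925). The cause of these shifts was not tested. With the replicate number as a block the counts were 17 higher, 6 lower, 4 between ZT10 and ZT6, 2 more positive and 2 more negative in the late light. Same-numbered libraries correlated at -0.12 to 0.34 in their deviations. The labels do not say whether they share anything besides the number. Size factors from the 8 libraries alone were not run for the comparison with other times. Genes listed at 0 in a group and near-identical copies limit single values.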
